A study of Mus musculus with 2 samples.

Results

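The Krueppel-like factor genes Klf2, Klf3, Klf4, Klf6, Klf7, Klf9, Klf10 and Klf13 were followed across the cells of the mouse stria vascularis (SV), the capillary-rich tissue that lines the outer wall of the cochlear duct. They were chosen by name and found by Ensembl identifier as 8 of the 27040 genes that both deposited tables list, out of 32285 listed genes in the Tie2-GFP library and 27998 in the NG2-DsRed library. Each library was made from 20 cochleae of 10 reporter mice aged 1 to 3 months, pooled and processed as a batch of its own with the 10x Chromium platform. Tie2-GFP mice carry GFP under the promoter of Tek, the gene of the endothelial receptor Tie2, and NG2-DsRed mice carry DsRed under the promoter of Cspg4, the gene of the pericyte proteoglycan NG2. The mice of both lines were otherwise untreated, their cells were released with collagenase IV and then papain, and they were sorted by fluorescence when needed. With 1 pooled library per line, no difference between lines has a replicate check and the line cannot be told apart from the batch, so values are given with intervals and without tests.

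The Tie2-GFP library held 633 barcodes with a median of 6956 unique molecular identifiers (UMIs, each standing for 1 captured mRNA molecule), and the NG2-DsRed library held 201 barcodes with a median of 4322. No barcode was shared between them. Barcodes were placed in 3 classes by genes with at least 1 UMI. Endothelial cells (ECs) had 4 or more of Pecam1, Cdh5, Cldn5, Flt1, Egfl7 and Ramp2. Mural cells, which are pericytes and smooth muscle cells, had 3 or more of Pdgfrb, Rgs5, Vtn and Notch3 and at most 1 of the endothelial genes. Intermediate cells, the melanocyte-like cells of the SV, had Dct, Tyr and Kcnj10 together. The Tie2-GFP library gave 368 ECs, 84 intermediate cells and 2 mural cells, and left 179 barcodes in no class. The NG2-DsRed library gave 54 ECs, 94 mural cells and 23 intermediate cells, and left 30 in no class.

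The classes were checked against markers that the rule did not use. All 10 further endothelial genes had UMIs in the ECs of both libraries, with a summed level of 6699 CPM (UMIs of a gene per 1000000 UMIs of the class) for Tie2-GFP and 5226 CPM for NG2-DsRed ECs. The same sum was 15.7 and 4.08 CPM in the intermediate cells of the 2 libraries and 650 CPM in NG2-DsRed mural cells, where Tek, Kdr and Vwf had no UMI. Of 10 further mural genes, all had UMIs in NG2-DsRed mural cells, with 12497 CPM in sum, but they also summed to 1933 CPM in the ECs of that library against 249 CPM in Tie2-GFP ECs. Of the mural genes in the rule, at least 2 had UMIs in 38 of the 54 NG2-DsRed ECs and in 30 of the 368 Tie2-GFP ECs, so the counts of genes past 2-fold and the relations to Fos and Egr1 in NG2-DsRed ECs are also given without these barcodes, while the levels, shares, terciles and gene lists include them. Intermediate cells had UMIs of 5 of 7 further pigment-cell genes, of which Pmel had only 1 UMI in each library, and lacked Tyrp1 and Kit. Markers of marginal cells, the epithelium that borders the intermediate cells, summed to 3568 CPM in Tie2-GFP and 1061 CPM in NG2-DsRed intermediate cells. Slc12a2 alone gave 3336 and 1053 CPM of these sums. The marginal genes Kcnq1 and Kcne1 were 19.9 and 63.8 CPM in Tie2-GFP and had no UMI in NG2-DsRed intermediate cells. Red-cell genes summed to 2305 CPM in Tie2-GFP ECs and to 22.1 CPM in NG2-DsRed ECs. The part of these other cells in the values below was not tested.

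Krueppel-like factors are transcription factors that bind GC-rich and CACCC-containing DNA through zinc fingers at their C-terminal end. In endothelium Klf2 and Klf4 are switched on by laminar shear stress through a kinase cascade that ends in MEF2 factors, and they promote an anticoagulant and anti-inflammatory state. Several members of the family are also induced within minutes as immediate early genes when cells are stimulated or taken out of their tissue, together with the AP-1 subunit Fos and the zinc finger factor Egr1.

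The sequences just before the transcription starts of Klf2, Klf4, Klf6 and Klf9 are shown because the first 3 of these genes had the highest r with Fos over ECs, while Klf9 was within 2-fold in every class comparison. They are taken from RefSeq promoter windows on GRCm38.p6, which matched 7 of the 8 genes (Klf10 had no window), are written 5′ to 3′ on the strand of the gene and end before the first annotated transcript start. Capitals in the Klf2 sequence mark a MEF2 box. Capitals in the Klf9 sequence mark a match to TGANTCA, a loose form of the AP-1 motif, and the CACCC letters that overlap it.
Klf2, chr8:72318812-72319032, plus strand: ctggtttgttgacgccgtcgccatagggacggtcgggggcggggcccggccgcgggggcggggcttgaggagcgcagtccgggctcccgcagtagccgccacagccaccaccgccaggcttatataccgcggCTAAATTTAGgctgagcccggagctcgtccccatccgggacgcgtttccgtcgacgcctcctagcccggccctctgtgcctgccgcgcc
Klf4, chr4:55532476-55532725, minus strand: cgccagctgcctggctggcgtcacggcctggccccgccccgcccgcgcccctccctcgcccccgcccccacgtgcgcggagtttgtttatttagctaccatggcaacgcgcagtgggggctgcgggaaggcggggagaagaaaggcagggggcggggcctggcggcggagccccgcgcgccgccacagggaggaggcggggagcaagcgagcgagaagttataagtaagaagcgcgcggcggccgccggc
Klf6, chr13:5861239-5861481, plus strand: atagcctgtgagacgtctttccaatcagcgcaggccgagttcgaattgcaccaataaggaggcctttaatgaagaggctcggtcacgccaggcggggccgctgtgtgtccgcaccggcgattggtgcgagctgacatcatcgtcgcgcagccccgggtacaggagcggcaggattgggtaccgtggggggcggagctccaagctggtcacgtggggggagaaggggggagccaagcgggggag
Klf9, chr19:23140976-23141225, plus strand: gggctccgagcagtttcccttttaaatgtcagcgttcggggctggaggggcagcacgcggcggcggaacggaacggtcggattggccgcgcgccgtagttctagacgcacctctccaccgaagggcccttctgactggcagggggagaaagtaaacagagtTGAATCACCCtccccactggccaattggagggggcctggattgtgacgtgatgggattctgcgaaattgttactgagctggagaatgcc

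Both strands were searched. TGANTCA, a loose form of the AP-1 motif of Fos and Jun proteins, allows any base at its centre. It was found in 1 of the 7 windows and in 7.81% of all 32851 promoter windows. That match, in the window of Klf9, reads TGAATCA. TGACGTCA, the cyclic AMP response element, and the CArG box, through which serum response factor acts on Fos and Egr1, were found in none of the 7 windows and in 1.79% and 1.63% of all windows. The CACCC letters that the family itself recognizes were found in the windows of Klf2, Klf3, Klf7, Klf9 and Klf13, not in those of Klf4 and Klf6, and in 57.5% of all windows. The windows run on past the end of the sequences shown. The Klf2 match, at position -19 from the RefSeq start, lies past the first annotated transcript start and so outside the sequence shown. The MEF2 box of Klf2, searched for only after the windows had been read, starts at position -118 from the RefSeq start, and 3.19% of all windows hold such a box. A match is a stretch of letters, and no match says only that the letters are not in this window.

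Klf2 (ENSMUSG00000055148, GRCm38 chromosome 8, 72319033 to 72321656, plus strand) showed the steepest differences between classes of the 8 genes. Its level was 2120 CPM in Tie2-GFP ECs (95% exact Poisson interval 2070 to 2170) and 4818 CPM in NG2-DsRed ECs (4627 to 5014). It was 585 CPM in NG2-DsRed mural cells (504 to 675), 16.6 CPM in Tie2-GFP intermediate cells (10.1 to 25.6) and 16.3 CPM in NG2-DsRed intermediate cells (4.45 to 41.8). Both endothelial levels thus stood above the mural level, and the mural level above both intermediate levels, with no overlap of intervals. These intervals and all others here cover counting error only. In Tie2-GFP intermediate cells Klf2 stood at 0.782% of its endothelial level, inside the range of the 10 endothelial genes outside the class rule, which stood at 0 to 0.877% there. In NG2-DsRed intermediate cells it stood at 0.339%, again inside the range of 0 to 0.574% for those genes. The top of the range was set by Vwf, from 2 UMIs, in the Tie2-GFP library and by Ptprb, from 1 UMI, in the NG2-DsRed library. Whether the Klf2 UMIs of intermediate cells are background or expression was not tested, and 1 Tie2-GFP intermediate cell held 7 of the 20.

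Klf4 (ENSMUSG00000003032, chromosome 4, 55527143 to 55532466, minus strand), the closest functional partner of Klf2 in endothelium, had the same order of classes with shallower steps. It reached 1011 CPM in Tie2-GFP ECs (977 to 1046), 1573 CPM in NG2-DsRed ECs (1465 to 1687) and 406 CPM in NG2-DsRed mural cells (340 to 483). In intermediate cells it was 196 CPM in the NG2-DsRed library (144 to 260) and 82.1 CPM in the Tie2-GFP library (66.7 to 99.9). No 2 neighbours in this order had overlapping intervals. Unlike Klf2, Klf4 in intermediate cells stood at 8.11% and 12.5% of the endothelial level of the same library, above the range of those endothelial genes. These UMIs were unevenly spread, since 1 Tie2-GFP intermediate cell held 25 of the 99 and 1 NG2-DsRed intermediate cell held 15 of the 48.

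Klf6 (ENSMUSG00000000078, chromosome 13, 5861482 to 5870394, plus strand), an early gene after vessel injury, did not separate the ECs of the 2 lines. Its level was 779 CPM in Tie2-GFP ECs (750 to 810) and 858 CPM in NG2-DsRed ECs (778 to 943). It was 253 CPM in NG2-DsRed mural cells (201 to 315), 147 CPM in NG2-DsRed intermediate cells (103 to 203) and 104 CPM in Tie2-GFP intermediate cells (87.0 to 124). The endothelial levels stood above the other 3, whose neighbouring intervals overlapped.

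Klf10 (ENSMUSG00000037465, chromosome 15, 38291463 to 38300706, minus strand), an early target of TGF-beta signalling, was an endothelial transcript of lower level. It was 148 CPM in Tie2-GFP ECs (135 to 162) and 102 CPM in NG2-DsRed ECs (76.3 to 135). It rested on 7 UMIs in NG2-DsRed mural cells, or 21.9 CPM (8.80 to 45.1), on 19 UMIs in Tie2-GFP intermediate cells, or 15.7 CPM (9.48 to 24.6), and on 2 UMIs in NG2-DsRed intermediate cells. The 3 lower levels overlapped in their intervals, and both endothelial levels stood above them.

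Klf3 (ENSMUSG00000029178, chromosome 5, 64803388 to 64832901, plus strand), a repressor that recruits CtBP proteins, differed less between ECs and intermediate cells than the genes above. Each level overlapped the next one in order. It was 220 CPM in Tie2-GFP ECs (204 to 236), 191 CPM in NG2-DsRed ECs (154 to 233) and 114 CPM in NG2-DsRed intermediate cells (76.0 to 165). It was 83.7 CPM in Tie2-GFP intermediate cells (68.2 to 102) and 56.3 CPM, from 18 UMIs, in NG2-DsRed mural cells (33.4 to 88.9). Both endothelial levels still stood above the mural and the Tie2-GFP intermediate level, with no overlap of intervals. Klf3 was the only one of the 8 genes whose lowest level was in mural cells. It stood at 38.1% of its endothelial level in Tie2-GFP and at 59.9% in NG2-DsRed intermediate cells. Both values were above the range of the endothelial genes outside the class rule.

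Klf7 (ENSMUSG00000025959, chromosome 1, 64029447 to 64122282, minus strand), a factor best known from growing neurons, did not separate mural cells from ECs. It was 328 CPM in Tie2-GFP ECs (308 to 348), 256 CPM in NG2-DsRed mural cells (204 to 318) and 239 CPM in NG2-DsRed ECs (198 to 286), with neighbouring intervals overlapping. It dropped to 53.1 CPM in NG2-DsRed intermediate cells (28.3 to 90.8) and 32.3 CPM in Tie2-GFP intermediate cells (23.0 to 44.2), whose intervals overlapped. The lower pair stood clear of the higher 3.

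Klf9 (ENSMUSG00000033863, chromosome 19, 23141226 to 23168134, plus strand), a target of thyroid hormone and glucocorticoids, showed no endothelial excess. It was 394 CPM in NG2-DsRed mural cells (328 to 469), 293 CPM in NG2-DsRed ECs (248 to 345) and 288 CPM in Tie2-GFP intermediate cells (259 to 320). It was 242 CPM in Tie2-GFP ECs (226 to 260) and 216 CPM in NG2-DsRed intermediate cells (162 to 283). All neighbours in this order overlapped, and the highest level was in the mural cells.

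Klf13 (ENSMUSG00000052040, chromosome 7, 63886351 to 63938915, minus strand), known from the control of chemokine genes in T cells, lay between these patterns. It was 213 CPM in NG2-DsRed ECs (174 to 258), 198 CPM in Tie2-GFP ECs (183 to 213) and 134 CPM in NG2-DsRed mural cells (97.3 to 181). It was 40.8 CPM in NG2-DsRed intermediate cells (19.6 to 75.1) and 23.2 CPM in Tie2-GFP intermediate cells (15.4 to 33.5). The endothelial pair overlapped, the mural level stood below Tie2-GFP ECs, and the intermediate pair overlapped at the bottom. The gene models of Klf3, Klf7, Klf9 and Klf13 overlap other annotated genes, and whether strand was used in counting is not given in the sources used here. The 2 mural cells of the Tie2-GFP library had 8 UMIs of Klf6, 7 each of Klf7 and Klf9, 5 of Klf4 and 1 of Klf13, and none of Klf2, Klf3 and Klf10, and they enter no comparison.

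**Figure D1:**
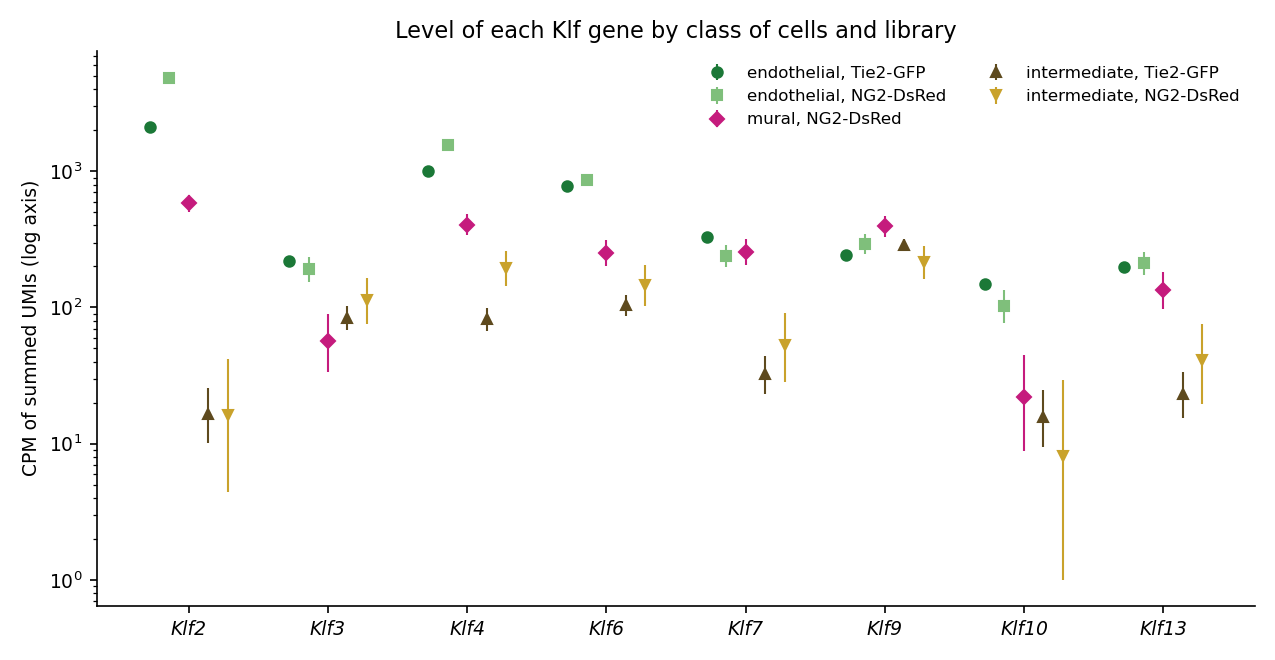
Level of each gene as CPM of summed UMIs on a log axis, in ECs, mural cells and intermediate cells of each library, with 95% exact Poisson intervals. Klf2 spans from 4818 CPM in NG2-DsRed ECs to 16.3 CPM in NG2-DsRed intermediate cells, while the 5 levels of Klf9 lie between 216 and 394 CPM.

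The share of cells with a UMI was compared after every cell had been thinned to 1567 UMIs, because the median depth ran from 3018 UMIs in NG2-DsRed mural cells to 15340 in Tie2-GFP intermediate cells. Cells below that depth were left out, 5 Tie2-GFP ECs, 2 Tie2-GFP intermediate cells, 10 NG2-DsRed mural cells and 1 NG2-DsRed intermediate cell. Klf2 was then found in 80.0% of Tie2-GFP ECs (76.3 to 84.0% over 100 draws), 95.3% of NG2-DsRed ECs, 29.1% of mural cells, and 2.05% and 2.55% of the intermediate cells of the Tie2-GFP and NG2-DsRed libraries. Klf4 was found in 64.6% and 81.0% of ECs of the 2 libraries, 18.7% of mural cells and 7.24% and 17.3% of intermediate cells. Klf2 and Klf4 were thus found in a minority of mural cells and in most ECs at the same depth. In mural cells their CPM stood at 12.1% and 25.8% of the NG2-DsRed endothelial level. Of the endothelial genes outside the class rule, Esam stood at 80.2% there, Emcn at 26.8% and Cd93 at 7.83%, and the others at 0 to 1.32%. The part of stray endothelial RNA was not tested. Klf6 was found in 57.2% and 61.5% of ECs, 26.1% of mural cells, and 11.5% and 18.8% of intermediate cells. Klf9 ran the other way, with 42.9% of mural cells, 27.7% of Tie2-GFP ECs, 33.5% of NG2-DsRed ECs, and 32.3% and 29.2% of intermediate cells. The remaining 4 genes were found in 14.3 to 37.2% of ECs at this depth.

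Depth changed what the shares showed. Without thinning, Klf3 had a UMI in 52.4% of Tie2-GFP and 69.6% of NG2-DsRed intermediate cells, close to the 72.3% and 66.7% of the ECs of the same libraries. At equal depth these shares were 10.5% and 17.0% against 29.2% and 24.5%. Klf2 without thinning was found in 95.4% of Tie2-GFP ECs, in all 54 NG2-DsRed ECs and in 35.1% of mural cells, where the median cell had none.

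The amount per cell was broad for the genes of high level. The median Tie2-GFP EC held 12 UMIs of Klf2 and the highest held 175. For Klf4 the median was 5 and the highest 104, and for Klf6 the median was 5 and the highest 47. The other 5 genes had a median of 1 or 2 UMIs in these cells, so that single cells say little about them. In NG2-DsRed ECs, whose median depth was 9010 UMIs against 7503 in the Tie2-GFP library, the medians were 42 for Klf2, 14 for Klf4 and 6 for Klf6.

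**Figure D2:**
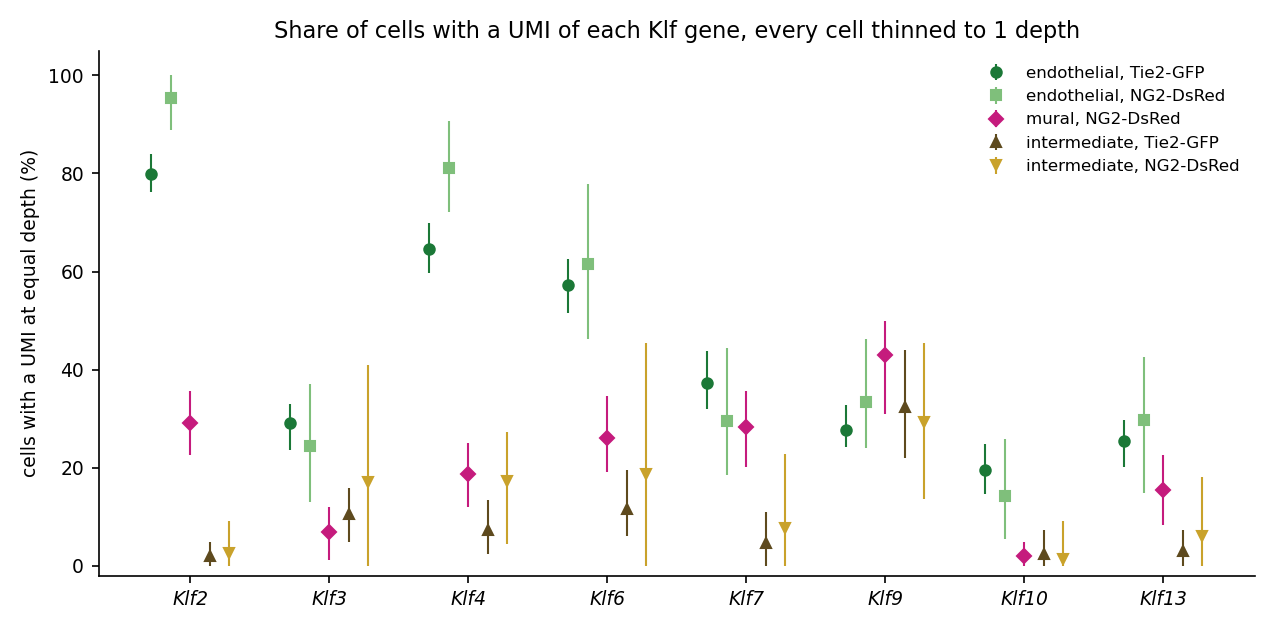
Percentage of cells with at least 1 UMI of each gene after every cell was thinned to 1567 UMIs, with the lowest and highest of 100 draws, by class and library. Klf2 and Klf4 separate ECs from the other classes, with 80.0% and 64.6% of Tie2-GFP ECs, and the points of Klf9 lie between 27.7% and 42.9%.

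Within the Tie2-GFP library 7 of the 8 genes were at least 2-fold higher in ECs than in intermediate cells and none was at least 2-fold lower. All 8 had the minimum of 50 UMIs over both classes. Klf2, Klf7, Klf10 and Klf13 reached it only through ECs, with 20, 39, 19 and 28 UMIs in intermediate cells. Of the 8219 genes with that minimum, 29.7% were at least 2-fold higher and 17.2% at least 2-fold lower. The median log2 ratio was 3.16 for the 8 genes and 0.25 for all genes tested. Klf2 was 128-fold higher (82.7 to 209, exact binomial interval), Klf4 12.3-fold (10.1 to 15.2), Klf7 10.1-fold (7.36 to 14.3) and Klf10 9.42-fold (5.96 to 15.8). Klf13 was 8.51-fold, Klf6 7.46-fold and Klf3 2.63-fold higher. Klf9 was the exception, with a log2 ratio of -0.25 (-0.43 to -0.07). The difference depends on which intermediate cells are taken: their median mitochondrial share was 9.36% of UMIs against 1.79% in ECs, only 6 of the 84 pass a limit of 5%, and with those alone 6 genes were at least 2-fold higher. The log2 ratio was then 0.45 in place of 1.39 for Klf3, 2.50 in place of 3.62 for Klf4, 1.98 in place of 2.90 for Klf6, 4.19 in place of 3.34 for Klf7 and 6.30 for Klf2, which was lower than before. Under a stricter class rule that of Klf4 was 4.72. The ratio of Klf2 is one over 20 UMIs in intermediate cells, so its size is set by that low level.

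The NG2-DsRed library, a separate batch, gave the same contrast for 6 of the 8 genes. ECs exceeded intermediate cells at least 2-fold for Klf2, Klf4, Klf6, Klf7, Klf10 and Klf13, none was at least 2-fold lower, and of 2687 genes tested 30.3% were higher and 17.7% lower. The median log2 ratio was 2.46 for the 8 genes and 0.28 for all. Klf2 had a ratio of 295 (115 to 1084), Klf4 of 8.03 (log2 3.01, 2.58 to 3.46), Klf6 of 5.84 (4.15 to 8.45) and Klf7 of 4.50 (2.54 to 8.71). Klf10, with 2 UMIs in the intermediate cells, had a ratio of 12.5 with a wide interval (3.30 to 106). Klf3 had a ratio of 1.67 (1.09 to 2.64) and Klf9 of 1.36 (0.984 to 1.89), both within 2-fold. The Klf2 ratio rests on leaving out 2 barcodes that met both the endothelial and the intermediate rule, and with them in both classes its log2 value was 4.92 in place of 8.20, while under the stricter class rule it was higher than 8.20. With the mitochondrial limit on every class the log2 ratio was 1.88 in place of 3.01 for Klf4 and 1.52 in place of 2.17 for Klf7, and the stricter rule gave 2.87 in place of 3.65 for Klf10. Without the ECs that had 2 or more mural genes, 4 genes reached the minimum and 3 of them were at least 2-fold higher.

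Against mural cells of the same library, which were compared with the same 54 ECs, 5 of the 8 genes were at least 2-fold higher in ECs and none at least 2-fold lower, and of 3054 genes tested 16.2% were higher and 13.4% lower. The median log2 ratio was 1.76 for the 8 genes and 0.00 for all. Klf3 and Klf10 reached the minimum only through ECs, with 18 and 7 UMIs in mural cells. Klf2 was 8.24-fold higher in ECs (7.10 to 9.61), Klf10 4.68-fold (2.12 to 12.2), Klf4 3.87-fold (3.21 to 4.70), Klf3 3.39-fold (2.03 to 5.97) and Klf6 3.39-fold (2.67 to 4.35). With every cell weighted equally the log2 ratio was 3.69 in place of 3.04 for Klf2 and 2.64 in place of 1.95 for Klf4, and at equal depth it was 2.87 in place of 2.23 for Klf10. The remaining 3 genes stayed within 2-fold. Klf13 had a ratio of 1.58 (1.10 to 2.31), Klf7 of 0.933 (0.698 to 1.25) and Klf9 of 0.745 (0.583 to 0.953). Without the ECs that had 2 or more mural genes, 6 genes reached the minimum, 3 were at least 2-fold higher, and Klf9 was at least 2-fold lower with a log2 ratio of -1.10.

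Mural cells in turn exceeded intermediate cells at least 2-fold for 4 of the 6 genes that reached the minimum, and none was at least 2-fold lower, while of 2097 genes tested 25.9% were higher and 20.6% lower. Klf2 had a ratio of 35.8 (13.8 to 133), Klf7 of 4.83 (2.67 to 9.46), Klf13 of 3.29 (1.63 to 7.35) and Klf4 of 2.07 (1.48 to 2.95). Klf9 with a ratio of 1.82 and Klf6 with 1.72 were within 2-fold. Klf2, Klf4 and Klf7 reached the minimum only through mural cells, with 4, 48 and 13 UMIs in intermediate cells. With the 2 barcodes of both rules kept, the log2 ratio of Klf2 was 1.91 in place of 5.16, and under the stricter class rule it was 6.33. With the mitochondrial limit on every class that of Klf7 was 1.62 in place of 2.27. The Klf4 difference did not last under stricter class rules, where its log2 ratio was -0.0096, or with the mitochondrial limit on every class, where it was -0.075. Klf3 and Klf10 had fewer than 50 UMIs over both classes, and Klf3 had a log2 ratio of -1.02.

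**Figure D3:**
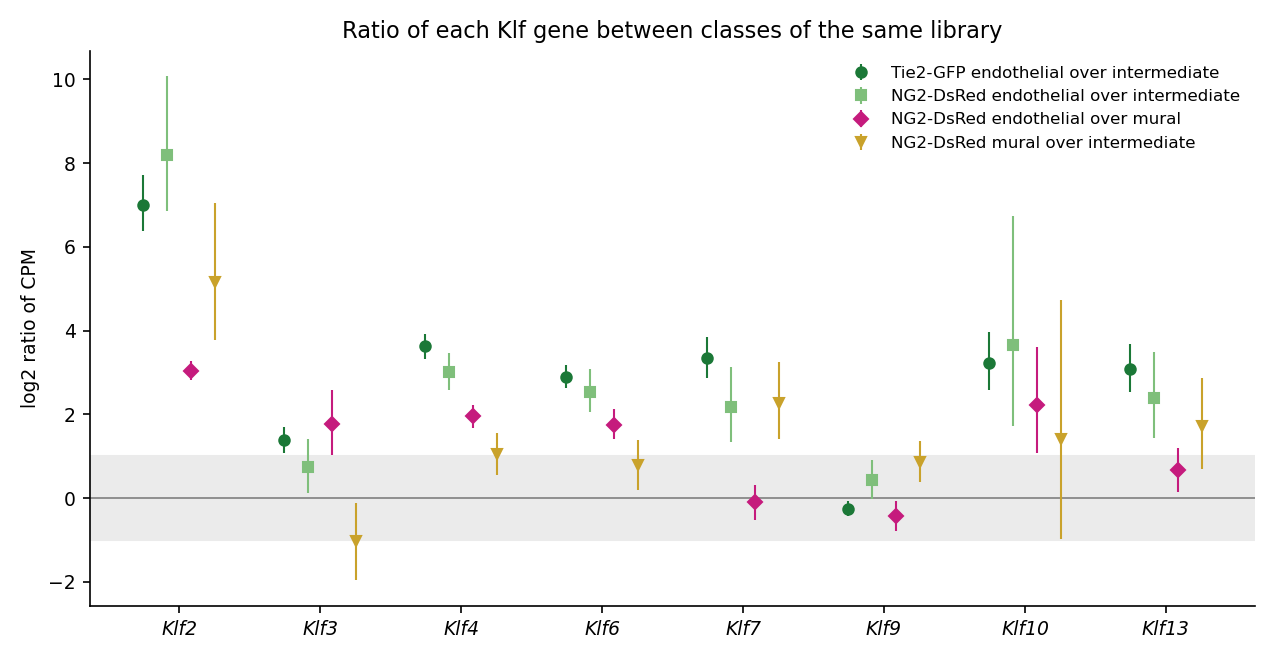
Log2 ratio of the CPM of each gene between 2 classes of the same library, with 95% exact binomial intervals and a grey band that marks ratios within 2-fold. Klf2 has the highest ratio in each of the 4 comparisons, up to 8.20 for NG2-DsRed ECs over intermediate cells, and Klf9 stays within the band in all 4.

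The mural level of Klf2 was not spread evenly over mural cells. Those with 2 or more of the contractile genes Acta2, Tagln and Myh11 (38 cells, median 3749 UMIs) held 1001 CPM of Klf2 (856 to 1162), and those with at most 1 of them and with Kcnj8 or Abcc9, the potassium channel subunits of capillary pericytes (50 cells, median 2604 UMIs), held 117 CPM (66.9 to 190). The ratio was 8.55 (log2 3.10, 2.35 to 3.93), above 99.1% of the 1005 genes that could be compared. The mural rule itself keeps out most of the 6 endothelial rule genes, so only endothelial genes outside it bear on stray endothelial RNA. Of these Tek and Kdr had no UMI in either set of mural cells, Cd93 had 8 UMIs in the contractile and 0 in the capillary cells, Emcn had 14 and 25, and Esam 88 and 63. Their part in the Klf2 difference was not tested. Klf4 was 544 CPM (439 to 667) in the contractile and 263 CPM (184 to 365) in the capillary mural cells, a ratio of 2.07. For the other 6 genes the interval of the ratio included 1. Klf13 was 164 against 87.8 CPM, Klf7 281 against 176 CPM, and Klf6 293 against 227 CPM. Klf9 was 369 against 417 CPM. Fos was also higher in the contractile mural cells, with 9081 against 4836 CPM, and Egr1 with 1896 against 1332 CPM. The part of this early-gene difference in that of Klf2 and Klf4 was not tested.

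Among Tie2-GFP ECs the genes differed little between cells with arterial genes (87 cells with at least 2 of Gja4, Gja5, Bmx, Sema3g, Vegfc and Hey1 and at most 1 venous gene) and cells with venous genes (102 cells with at least 2 of Nr2f2, Slc38a5, Vcam1, Vwf, Ackr1 and Lrg1 and at most 1 arterial gene). Klf3 was the member that differed most, with 283 CPM (246 to 322) in the arterial and 178 CPM (154 to 205) in the venous group. Its ratio of 1.59 was above 94.2% of the 5182 genes compared, and stayed under 2-fold. Klf6 was 699 against 858 CPM and Klf2 1970 against 2280 CPM, both lower in the arterial group, and Klf4 was level at 1138 against 1139 CPM. The intervals of the ratio of Klf7, Klf9, Klf10 and Klf13 included 1. Rgs5, a pericyte gene, was 724 CPM in the arterial and 378 CPM in the venous group, so a mural gene moved with this division.

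Klf9 was higher in ECs with 2 or more mural genes in both libraries, and these cells were also deeper. Their median was 9872 against 6202.5 UMIs in the NG2-DsRed and 17225.5 against 7246 UMIs in the Tie2-GFP library. The part of depth was not tested. NG2-DsRed ECs with 2 or more mural genes held 326 CPM of Klf9 (272 to 389) and the other 16 held 183 CPM (113 to 280). Tie2-GFP ECs with 2 or more mural genes held 386 CPM (333 to 446) and the other 338 held 218 CPM (201 to 236). The ratios were 1.78 and 1.77, and the intervals of the 2 NG2-DsRed levels overlapped. Klf2 went the other way, with 4463 against 6003 CPM in the NG2-DsRed and 1802 against 2174 CPM in the Tie2-GFP library. Klf4 and Klf6 were 1592 against 1510 CPM and 874 against 803 CPM in the NG2-DsRed library, with overlapping intervals. In the Tie2-GFP library Klf4 with a ratio of 1.17 and Klf7 with 1.26 were also higher, and Klf3 with 0.745 and Klf6 with 0.849 lower.

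The relation to Fos and Egr1 was examined over ECs of 1 library at a time, with every cell thinned to the same depth (3519 UMIs and 331 cells in the Tie2-GFP library, 3597 UMIs and 48 cells in the NG2-DsRed library) and Pearson r averaged over 100 draws. The cells of a library share its digestion, capture and sequencing, so these values describe the library. Fos itself was 6033 CPM in Tie2-GFP ECs and 7817 CPM in NG2-DsRed ECs, and Egr1 was 904 and 2634 CPM. In Tie2-GFP ECs 3 of the 8 genes had r of at least 0.2 with Fos, compared with 0.824% of the 4977 genes measured at this depth and 11 of 14 other immediate early genes. Klf2 had r = 0.46 (0.41 to 0.50 over draws), Klf4 0.25 (0.21 to 0.31) and Klf6 0.23 (0.18 to 0.29). Over all genes the median r was -0.01, and 99.9%, 99.4% and 99.3% of genes had a lower r than Klf2, Klf4 and Klf6. These 3 had means of 7.49, 3.36 and 2.70 thinned UMIs, while the genes they were ranked among needed a mean of only 0.1. The part of level in these ranks and shares, here and below, was not tested. The other 5 genes lay between -0.01 for Klf3 and 0.08 for Klf7 and Klf9. Of all genes, 94.6%, 94.2%, 89.0% and 88.8% had a lower r than Klf7, Klf9, Klf13 and Klf10, and 52.7% than Klf3. These 5 had few UMIs per cell, and a weak r in such sparse counts cannot show that they do not vary with Fos.

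In the NG2-DsRed ECs Klf2 had r = 0.54 with Fos (0.37 to 0.69), Klf4 0.37 (0.20 to 0.54) and Klf6 0.28 (0.11 to 0.44). These 3 of the 8 genes had r of at least 0.2, compared with 1.34% of 5318 genes and 11 of 14 other immediate early genes. Klf7 was at -0.23 (-0.45 to -0.01). With 48 cells the spread over draws is wide, and in the 12 cells left when ECs with 2 or more mural genes were dropped Klf2 had r = 0.69, Klf4 0.12 and Klf6 -0.20.

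Egr1 divided these genes differently. In Tie2-GFP ECs none of the 8 genes reached r of 0.2 with Egr1, as 0.281% of genes and 9 of 14 other immediate early genes did. Klf4 came closest with 0.19 (0.12 to 0.27), above 99.7% of genes. Klf2, which had the highest r with Fos of the 8, had 0.03 with Egr1 (-0.04 to 0.09), and Klf6 had -0.06 and Klf10 -0.10. In NG2-DsRed ECs 2 of the 8 genes reached 0.2, as 1.88% of genes and 10 of 14 other immediate early genes did, and these were Klf4 with 0.36 (0.13 to 0.52) and Klf2 with 0.29 (0.11 to 0.47). In the 12 NG2-DsRed cells with at most 1 mural gene the r of Klf2 with Egr1 was 0.08 and that of Klf4 0.07. The ranges over draws leave out the error from the choice of cells, so no difference between the libraries is read from these values.

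**Figure D4:**
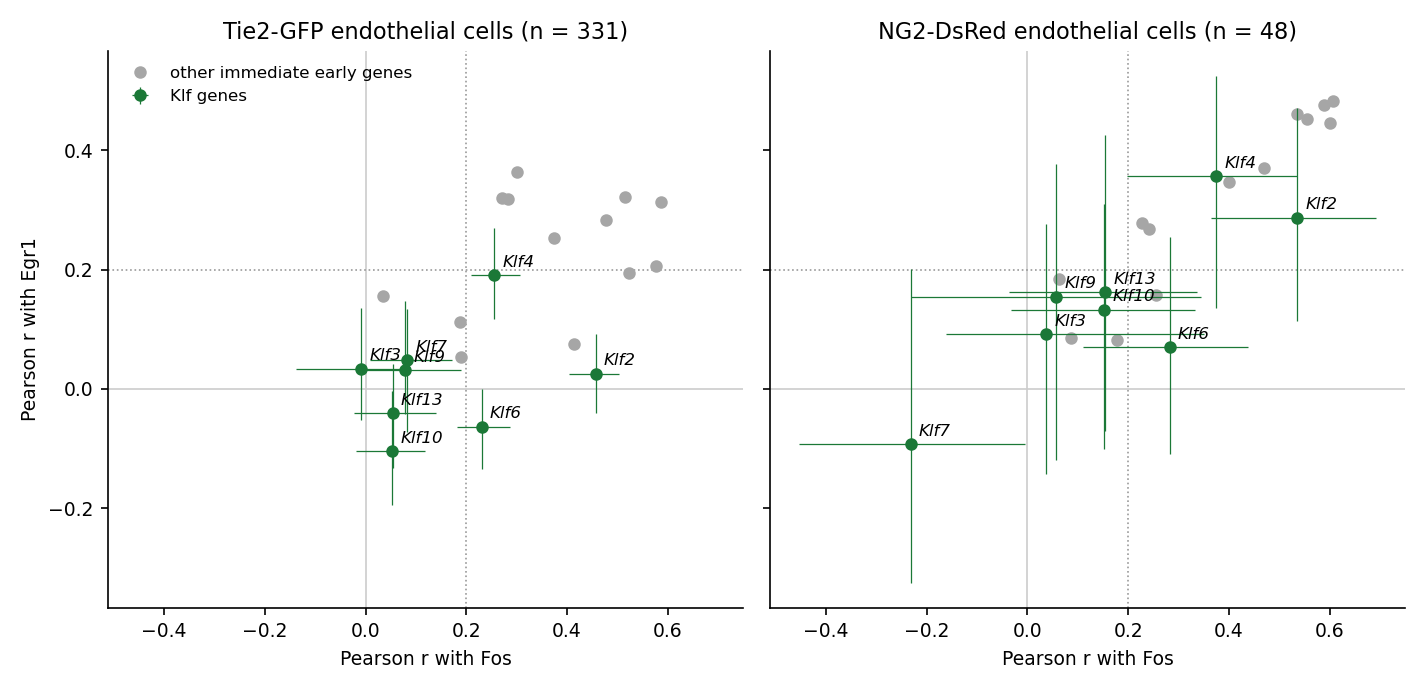
Pearson r over ECs with Fos (horizontal axis) and with Egr1 (vertical axis) for the 8 genes, with bars from the lowest to the highest of 100 draws, and for the other immediate early genes in grey, in 331 Tie2-GFP and 48 NG2-DsRed ECs. In the Tie2-GFP panel Klf2 lies at 0.46 on the Fos axis and 0.03 on the Egr1 axis, and Klf4 at 0.25 and 0.19.

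Levels by tercile of Fos show the size of this relation and are given without intervals. In Tie2-GFP ECs the Klf2 level was 1233 CPM in the tercile of cells with fewest Fos UMIs, 1986 CPM in the middle one and 3177 CPM in the one with most, a 2.58-fold range. Klf4 was 668, 879 and 1322 CPM (1.98-fold) and Klf6 was 577, 740 and 989 CPM (1.71-fold). The other 5 genes differed by 1.03-fold to 1.15-fold between the highest and the lowest tercile. In NG2-DsRed ECs Klf2 was 3255, 5820 and 6298 CPM, Klf4 1019, 1972 and 1913 CPM, and Klf6 660, 950 and 1178 CPM. Fos itself was 3933 CPM in the lowest NG2-DsRed tercile, against 7072 CPM in mural and 1384 CPM in intermediate cells of that library. In that tercile the 3 genes stood above their mural and intermediate levels, and the part of the early genes in this was not tested. The other 5 genes had a mean of 0.404 to 1.11 UMIs per NG2-DsRed EC at equal depth, so their terciles rest on few UMIs. Klf10 was 62.9, 135 and 139 CPM (2.21-fold) in these ECs, Klf3 161, 186 and 236 CPM, Klf9 255, 310 and 361 CPM, and Klf13 174, 259 and 235 CPM. Klf7 went down from 312 to 198 and 124 CPM. In the Tie2-GFP library the highest tercile by Fos held 1.03 to 1.15 times the level of the lowest for these 5 genes, and Klf7 was 301, 307 and 348 CPM.

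By tercile of Egr1, Tie2-GFP ECs held 793, 847 and 1228 CPM of Klf4. Klf2 was nearly flat at 2307, 2043 and 2037 CPM, Klf6 was 881, 720 and 702 CPM, and Klf10 was 185, 144 and 108 CPM. In NG2-DsRed ECs Klf4 was 1178, 1321 and 2405 CPM and Klf2 was 4474, 4665 and 6235 CPM. Again from few UMIs, Klf13 was 158, 227 and 283 CPM there, Klf9 235, 307 and 385 CPM, and Klf10 80.1, 126 and 131 CPM. Klf3 was 158, 188 and 237 CPM and Klf7 248, 216 and 170 CPM, also from few UMIs.

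**Figure D5:**
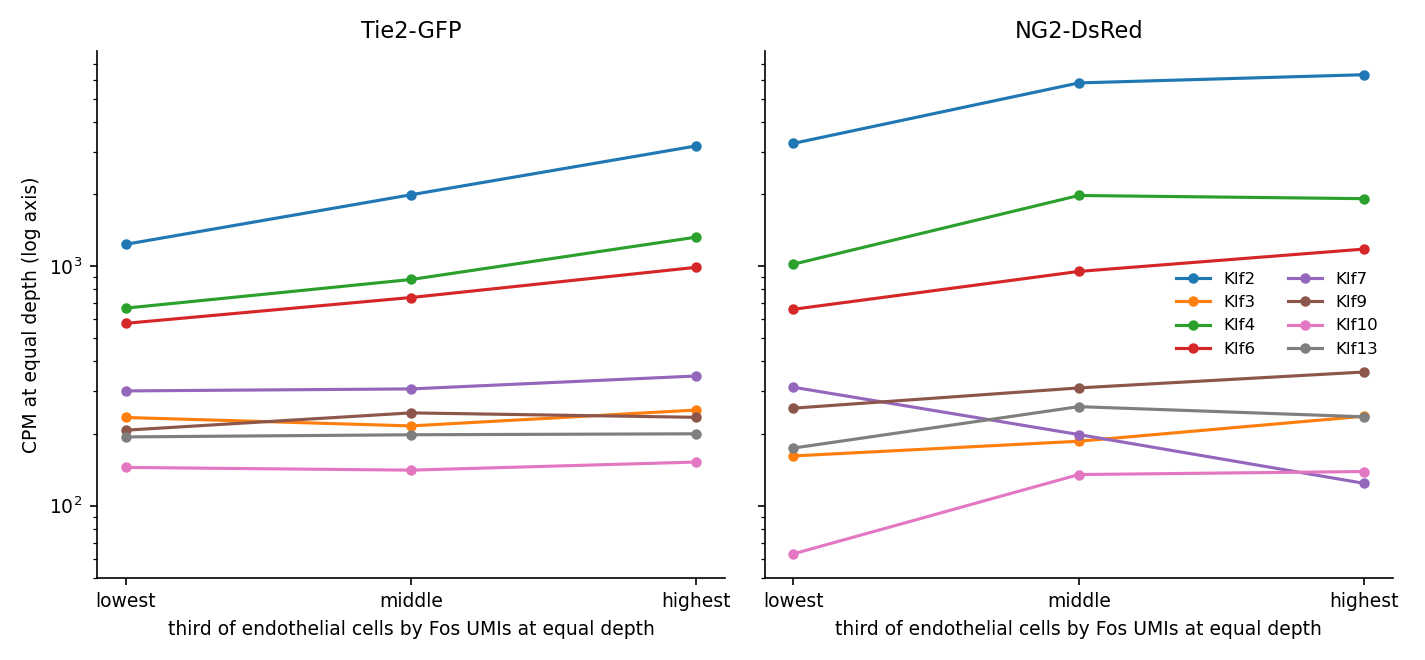
CPM at equal depth of each gene on a log axis in the terciles of ECs with the lowest, middle and highest number of Fos UMIs, for the Tie2-GFP and the NG2-DsRed library. In the Tie2-GFP panel Klf2, Klf4 and Klf6 climb from 1233 to 3177, from 668 to 1322 and from 577 to 989 CPM, and the lines of the other 5 genes stay nearly level.

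The genes whose pattern over Tie2-GFP ECs was most like that of each member were named by the highest r over the 331 cells. For Klf2 they included Fos (0.46) and the AP-1 subunit Jun (0.34). For Klf4 they were Klf2 (0.26), Fos (0.25) and Jun (0.25). Fos and Jun were thus among the nearest genes of both members. Klf6 was nearest to the stress factor Atf3 (0.30), Fosb (0.24) and the matrix protease Adamts9 (0.24). Klf10 was nearest to Rnd1 (0.24), Ier3 (0.23) and the kinase Pim1 (0.23). For the other 4 genes no r exceeded 0.17, which was that of the taurine transporter Slc6a6 with Klf3, and Klf9 was nearest to Cebpd (0.14) and to the mural gene Vtn (0.14). Among the 8 genes themselves, Klf2 and Klf4 had r = 0.26 over Tie2-GFP and 0.64 over NG2-DsRed ECs, and Klf2 and Klf6 had 0.20 and 0.34. All other pairs were between -0.07 and 0.10 in the Tie2-GFP library.

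Between the libraries, ECs of the NG2-DsRed line held at least 2-fold more of 1 of the 8 genes, Klf2, and at least 2-fold less of none, while of 7402 genes tested 9.82% were higher and 11.7% lower. Klf2 was 2.27-fold higher (2.17 to 2.38) and Klf4 1.56-fold (1.44 to 1.68). Klf6 with a ratio of 1.10, Klf9 with 1.21, Klf13 with 1.08 and Klf3 with 0.868 were close to level, and Klf7 with 0.730 and Klf10 with 0.691 were lower. Egr1 was 2.91-fold and Fos 1.30-fold higher in the same cells. Without the ECs that had 2 or more mural genes the log2 ratio of Klf2 was 1.47 in place of 1.18. In intermediate cells 1 of the 5 genes with enough UMIs was at least 2-fold higher in the NG2-DsRed library and none lower, while of 3992 genes tested 9.44% were higher and 8.69% lower. This was Klf4 with a ratio of 2.39 (1.66 to 3.40), beside ratios of 2.04 for Fos and 1.69 for Egr1. Its log2 ratio of 1.26 became 2.97 under the stricter class rule.

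The remaining genes of the family were few in UMIs. Of 18 other KLF and SP genes, 6 had the minimum of 50 UMIs over Tie2-GFP ECs and intermediate cells, and 5 of these were at least 2-fold higher in ECs (29.7% of all genes were), with a median log2 ratio of 1.77 over the 6. Klf11, which is close in sequence to Klf10, was 50.8 CPM in ECs and 6.63 CPM in intermediate cells, and Klf16 was 29.8 CPM in ECs with 1 UMI in intermediate cells. Sp1 was 76.7 against 28.2 CPM, Sp3 108 against 44.8 CPM and Sp4 35.6 against 8.29 CPM. Klf12 was 19.5 against 15.7 CPM. In the NG2-DsRed library Sp1 was 144 CPM in mural cells, against 68.3 CPM in ECs and 44.9 CPM in intermediate cells. No other gene of the family was past 2-fold in comparisons within that library, in which at most 2 had enough UMIs.

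Genes that act upstream of Klf2 and Klf4 in endothelium were compared in the same way. Of 12 such genes 11 had enough UMIs in the Tie2-GFP library, 7 were at least 2-fold higher in ECs than in intermediate cells, as 29.7% of all genes were, and none was lower. This list too was drawn from endothelium, and it holds Kdr, which was also used to check the classes. Its excess over pigment cells therefore does not bear on the control of Klf2 or Klf4. Kdr had no UMI in intermediate or NG2-DsRed mural cells, so it reached the minimum through ECs alone and the filter fixed its call. The MEF2 factor Mef2c was 542 against 36.5 CPM and Mef2a 249 against 37.3 CPM. Heg1, the membrane receptor of the CCM complex that restrains Klf2 and Klf4, was 165 CPM in ECs with 2 UMIs in intermediate cells, and the mechanosensitive channel Piezo1 was 80.4 against 19.9 CPM. The kinase Map3k3 was 53.3 against 19.9 CPM, Mef2d 70.6 against 31.5 CPM, and the VEGF receptor Kdr 305 CPM with no UMI in intermediate cells. The CCM proteins Krit1, Ccm2 and Pdcd10 were within 2-fold. In the NG2-DsRed library 4 of 6 were at least 2-fold higher in ECs than in intermediate cells (30.3% of all genes), namely Mef2a, Mef2c, Heg1 and Kdr. There 2 of 7, Heg1 and Kdr, were at least 2-fold higher in ECs than in mural cells (16.2% of all genes), and Mef2c was 528 CPM in ECs and 969 CPM in mural cells.

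Genes known to be controlled by Klf2 and Klf4 in endothelium were compared in the same way. Of 13 such genes 10 had enough UMIs in the Tie2-GFP library, and all 10 were at least 2-fold higher in ECs than in intermediate cells, as 29.7% of all genes were. The list was drawn from endothelium, so its excess over pigment cells does not bear on control by Klf2 or Klf4. Genes with no UMI in intermediate cells, such as Edn1 and S1pr1, reached the minimum through ECs alone, so the filter fixed their call. The matrix protease Adamts1 was 1602 against 19.1 CPM, the scaffold gene Slc9a3r2 417 against 10.8 CPM, and the nitric oxide synthase Nos3 66.1 against 3.32 CPM. Edn1, the endothelin gene, was 478 CPM in ECs and had no UMI in intermediate cells, at least 192-fold higher when the floor is set at 3 UMIs over the class, and the lipid receptor S1pr1 was at least 157-fold higher on the same footing. Thbd, the thrombomodulin gene, was 350 CPM in ECs with 1 UMI in intermediate cells. Against NG2-DsRed mural cells 5 of 8 were at least 2-fold higher in ECs (16.2% of all genes), namely Thbd, S1pr1, Slc9a3r2, Edn1 and Vcam1. Gja4, the connexin 37 gene, was at least 2-fold lower, with 60.3 CPM in ECs and 569 CPM in mural cells.

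Between the libraries, with Klf2 2.27-fold higher in NG2-DsRed than in Tie2-GFP ECs, 1 of 10 targets was at least 2-fold higher there and 3 were lower, beside 9.82% and 11.7% of all genes. The list holds genes that Klf2 raises and genes that it holds down, so its count has no direction of its own. Vcam1, an adhesion receptor that Klf2 is known to hold down, was 267 CPM in NG2-DsRed and 31.4 CPM in Tie2-GFP ECs. Thbd, which Klf2 is known to raise, was 125 against 350 CPM, Adamts1 737 against 1602 CPM, and Adamts4 rested on 3 UMIs against 117 CPM. Slc9a3r2 was 749 against 417 CPM and Nos3 54.2 against 66.1 CPM. The libraries also differ in batch, mural genes, red-cell genes and counting software, and the part of each was not tested.

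Immediate early genes were higher in ECs than in intermediate cells. Of 18 such genes 17 had enough UMIs in the Tie2-GFP library, and all 17 were at least 2-fold higher in ECs than in intermediate cells (29.7% of all genes), with a median log2 ratio of 3.15. In the NG2-DsRed library 2 of 14, Atf3 and Zfp36, were at least 2-fold higher in ECs than in mural cells, near the 16.2% of all genes, with a median log2 ratio of 0.65. The 8 Klf genes gave 5 and a median of 1.76. Against intermediate cells the medians of the Klf and the immediate early genes were 3.16 and 3.15 in the Tie2-GFP library. In the NG2-DsRed library they were 2.46 and 3.10, with all 14 immediate early genes at least 2-fold higher in ECs (30.3% of all genes). In mural over intermediate cells 10 of 12 immediate early genes were at least 2-fold higher (25.9% of all genes), with a median of 2.34. The difference between the lists was not tested. Fos was 7817 CPM in NG2-DsRed ECs and 7072 CPM in mural cells, a ratio of 1.11 (1.05 to 1.16), where Klf2 had a ratio of 8.24. Glucocorticoid-responsive genes, to which Klf9 also belongs by its known control, were at least 2-fold higher in Tie2-GFP ECs than in intermediate cells for 4 of 4 with enough UMIs (29.7% of all genes). Among them were Sgk1 with 197 against 19.1 CPM, Tsc22d3 with 90.4 against 19.1 CPM and Per1 with 90.4 against 15.7 CPM, whereas Klf9 was 242 against 288 CPM. In the NG2-DsRed library 1 of 2 was higher in ECs than in intermediate cells (30.3% of all genes). There 2 of 3 were higher in ECs than in mural cells (16.2% of all genes). In mural over intermediate cells the 1 gene with enough UMIs was at least 2-fold lower (20.6% of all genes).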

How the data were processed

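Raw UMI counts per gene and barcode of 1 Tie2-GFP and 1 NG2-DsRed library were used as the authors deposited them. The file headers name Cell Ranger 7.0.0 (Tie2-GFP) and software version 3.0.0 (NG2-DsRed), and the submitters' processing notes name bcl2fastq 2.20.0.422 and mm10. Whether intronic reads and strand were used is not given in the sources used here. The 2 tables list different gene sets, so genes were joined by Ensembl identifier. Gene positions are those of GENCODE M21 on GRCm38.

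The study's limits were 200 to 6000 genes and 200 to 30000 UMIs (Tie2-GFP) or 200 to 5000 genes and 200 to 20000 UMIs (NG2-DsRed). At most 40% ribosomal and 5% mitochondrial UMIs were also allowed, as in the study, except that intermediate cells were spared the mitochondrial limit. Their median mitochondrial share was 9.36% (Tie2-GFP) and 5.55% (NG2-DsRed), and 6 of 84 and 7 of 23 pass the limit. The part of damaged cells in this share was not tested. Doublets were treated only in an alternative, in which Scrublet scores removed 3 Tie2-GFP and 0 NG2-DsRed barcodes. UMIs were summed per class and divided by the class total. Intervals are exact Poisson for levels and exact binomial for ratios. A gene was compared between classes when it had at least 50 UMIs over both. A gene with few UMIs in 1 class reaches this minimum only through the other, so counts of calls lean to the class with more UMIs. Values of r were compared over genes with a mean of at least 0.1 thinned UMIs. Fold floors use 3 counts. Python 3.11.15, numpy 2.4.6, scipy 1.17.1, pandas 2.3.3, scanpy 1.11.5 and matplotlib 3.10.9 were used, and the steps were tested on simulated counts.

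The 8 genes and all lists were chosen with earlier results of these data known. Named besides the 8 genes, Fos and Egr1 are the 3 genes with the highest r to each member, the list genes with the most UMIs in ECs, every list gene that is counted, and other family genes with at least 50 UMIs. Cell classes come from marker genes and not from the study's own clusters. Protein sequences were not used here, and 1 gene that the rule names is not reported here.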

Additional observations from a re-analysis of the deposited data

How the results depend on the processing

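Each class comparison was repeated under 13 alternatives (the limits, the class rules, the weighting and depth of cells, the CPM total, Scrublet scores, the fold and the UMI minimum), and each relation to Fos and Egr1 under 9 (depth, normalization, rank correlation, pseudocount, class rule). Of 478 log2 ratios of single genes, 443 stayed within their interval, and of 288 values of r, 280 stayed within the spread over draws. Some of the 443 ratios could not change, so this count does not measure stability. Scrublet scores removed 0 NG2-DsRed barcodes, and no Tie2-GFP barcode was left out for meeting 2 class rules. The mitochondrial limit already held for all ECs and mural cells. Any change of sign was seen in 11 ratios and 8 values of r, all but 3 of which had been within 2-fold or, for r, under 0.2 in size. Without ECs that had 2 mural genes Klf9 went to -0.24 in NG2-DsRed ECs over intermediate cells and to -0.25 between the ECs of the libraries, and with the mitochondrial limit Klf6 went to -0.24 between intermediate cells. Of genes past 2-fold only Klf4 changed sign, in mural over intermediate cells, -0.075 with the mitochondrial limit on every class and -0.0096 with the stricter class rule, and of genes with r of at least 0.2 only Klf6 with Fos in NG2-DsRed ECs, -0.20 without ECs that had 2 mural genes, where 12 cells were left. Without those ECs 3 in place of 6 of the Klf genes were at least 2-fold higher than in intermediate cells, and 3 in place of 5 were higher and 1 in place of 0 lower than in mural cells, partly because fewer genes reached 50 UMIs. With the mitochondrial limit on every class 2 in place of 4 were higher in mural than in intermediate cells, and with a minimum of 20 UMIs 1 was lower. Between libraries the count of 1 gene higher in NG2-DsRed ECs became 2 at a fold of 1.5 and 0 at a fold of 3, and that in intermediate cells became 2 and 0, and 3 when barcodes of 2 classes were kept. Without thinning and with r taken given log UMIs, 1 gene, Klf4 with r = 0.22, reached 0.2 with Egr1 in Tie2-GFP ECs. With Fos the r of Klf2 in Tie2-GFP ECs ranged from 0.44 to 0.49, of Klf4 from 0.24 to 0.28 and of Klf6 from 0.22 to 0.26. The cause of these shifts was not tested further. No paired analysis was possible because each line is 1 pooled library. Depth limits Klf3, Klf10 and Klf13 most, which had 43 or fewer UMIs in the mural and intermediate cells of the NG2-DsRed library.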
